A study of Mus musculus with 12 samples.

Results

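The G1 cell cycle genes described here are the D-type cyclins Ccnd1, Ccnd2 and Ccnd3, the E-type cyclin Ccne1, the kinases Cdk4 and Cdk6, the inhibitors Cdkn1b, Cdkn2c and Cdkn2d, and Rb1, the substrate of these kinases. They were taken by symbol from a list made with earlier results of these data known. Each symbol was matched to 1 Ensembl gene, giving 10 of the 56748 genes in the count files. All 10 passed the filter on low counts, as did 18438 genes in all.

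Bulk RNA-seq was performed on donor-derived CD45.2+ Lin-Sca+Kit+ bone marrow (BM) cells, a sort enriched for stem and multipotent progenitor cells. The donor cells carried SCLtTA and BCR-ABL in all groups, so that the tetracycline (TET) transactivator, driven by SCL elements active in primitive haemopoietic cells, expresses BCR::ABL1 where TET is absent. All recipients were CD45.1 B6.SJL mice labelled as 8 to 12 weeks old, given 2 irradiation doses of 4.25 Gy at an interval of 3 h, and all received TET after transplant. In 6 recipients TET was then withdrawn for 2 weeks (BCR::ABL1+), and in 6 it was maintained (BCR::ABL1-). The methods state that donor BM was pooled from mice of both sexes and frozen before use, so the 6 libraries of a group come from different recipients of one donor pool, and p-values measure the spread between recipients. The labels give 1 sex for each group, male for BCR::ABL1- and female for BCR::ABL1+, so sex as labelled and BCR::ABL1 cannot be told apart.

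In G1, D-type cyclins bind CDK4 or CDK6, E-type cyclins bind CDK2, and both kinds of complex phosphorylate RB1, which releases E2F factors to transcribe genes of S phase. INK4 proteins, such as those encoded by Cdkn2c and Cdkn2d, bind CDK4 and CDK6 and keep D-type cyclins away, whereas the CIP/KIP protein encoded by Cdkn1b binds whole cyclin-CDK complexes. In haemopoietic stem cells this pathway is known for setting the exit from quiescence, with CDK6 promoting it and the products of Cdkn1b and Cdkn2c restraining it.

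Between 22804754 and 41832868 reads were counted on genes per BCR::ABL1- library, and between 16150817 and 25070105 per BCR::ABL1+ library. The 10 genes held between 152 and 81494 reads in any library. BCR::ABL1+ libraries varied more around their mean (biological coefficient of variation 32.4%, or 24.5% without replicate 2, against 10.8%), and mitochondrial genes took 2.26 to 2.97% of their counts against 0.816 to 1.29%. Replicate 2 of BCR::ABL1+ stood apart: it was the highest of all libraries for stromal and for mast cell and basophil genes. The sorting markers Kit and Ptprc were at 323 CPM (reads of a gene scaled to a common library total) or more in every library, and Ly6a at 27.2 CPM or more. Kit was lower in BCR::ABL1+, at 323 to 522 CPM against 681 to 800 CPM in BCR::ABL1- (log2 fold change -0.86, adjusted p = 4.68e-06, edgeR). Ptprc was higher, at 497 to 619 CPM against 442 to 478 CPM (log2 fold change 0.27, adjusted p = 0.00274, edgeR). Ly6a did not pass the test (adjusted p = 0.0660, edgeR). Xist, which is transcribed from the inactive X chromosome, lay at 3794 to 4425 CPM in the libraries labelled male, against 2183 to 3502 CPM in those labelled female. The Y-linked Ddx3y was at 0 to 0.588 CPM in the former and at 0 to 8.64 CPM in the latter, the highest in replicate 2 and the next at 1.14 CPM, so these levels did not follow the sex labels.

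The sequence upstream of the kinase genes Cdk4 and Cdk6 is shown because these partners of the same cyclins moved in opposite directions. Each line gives the 250 bases before the RefSeq start site (GRCm38.p6, plus strand), Cdk4 at chr10:127063285-127063534 and Cdk6 at chr5:3343643-3343892, and capitals mark the E-box CACGTG, the letters known to be bound by MYC with its partner MAX.
Cdk4: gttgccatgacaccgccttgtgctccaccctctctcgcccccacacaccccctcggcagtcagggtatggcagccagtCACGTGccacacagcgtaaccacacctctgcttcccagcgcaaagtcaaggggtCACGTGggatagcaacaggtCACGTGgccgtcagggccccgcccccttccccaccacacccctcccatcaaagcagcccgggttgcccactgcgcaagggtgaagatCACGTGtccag
Cdk6: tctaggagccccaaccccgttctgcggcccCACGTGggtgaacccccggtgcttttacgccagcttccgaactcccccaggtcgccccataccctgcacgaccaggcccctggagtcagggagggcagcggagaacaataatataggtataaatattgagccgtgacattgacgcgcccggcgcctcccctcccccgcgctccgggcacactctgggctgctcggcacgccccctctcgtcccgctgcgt
The Cdk4 window held 4 E-boxes, 172, 118, 98 and 11 bases before the start site, and the Cdk6 window held 1, 220 bases before it. Of 32851 such mouse windows, 6.02% held at least 1 CACGTG, which reads the same on both strands, and 7 windows (0.0213%) held at least 4. The cut at 4 was set by the count in the Cdk4 window itself. Windows were matched for 7 of the 10 genes, 9 windows in all. None of the 9 held an E2F motif (TTTCCCGC, TTTCGCGC, TTTGCCGC or TTTGGCGC, either strand; 1.86% of all windows) or a STAT motif (TTCNNNGAA; 7.02%), and 1, of Ccnd3, held the FOXO motif GTAAACA (3.17%). Myc itself, at 321 ± 22.4 CPM in BCR::ABL1- and 302 ± 36.7 CPM in BCR::ABL1+ (SD, n = 6 each), did not pass the test (log2 fold change -0.09, SE 0.0804, adjusted p = 0.360, edgeR). A match is a description of the letters and not of binding.

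The 10 genes did not move as a block. Of the 18438 genes tested, 59.5% passed the edgeR test at an adjusted p under 0.05, 30.6% as higher and 29.0% as lower in BCR::ABL1+. Among the 10 genes 8 passed, 2 as higher (Ccne1 and Cdk4) and 6 as lower (Ccnd2, Ccnd3, Cdk6, Cdkn1b, Cdkn2c and Rb1), while Ccnd1 and Cdkn2d did not. The median log2 fold change was -0.35 over the 10 genes and 0.07 over all genes tested. The 6 and 6 libraries did not overlap for 6 of the 10 genes, beside 37.6% of all genes tested. Values below are CPM with TMM scaling, means are given ± SD with n = 6 libraries per group, and fold changes are BCR::ABL1+ minus BCR::ABL1- on the log2 scale. In bulk RNA, fewer cells of a type and less RNA per cell cannot be told apart.

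**Figure D1:**
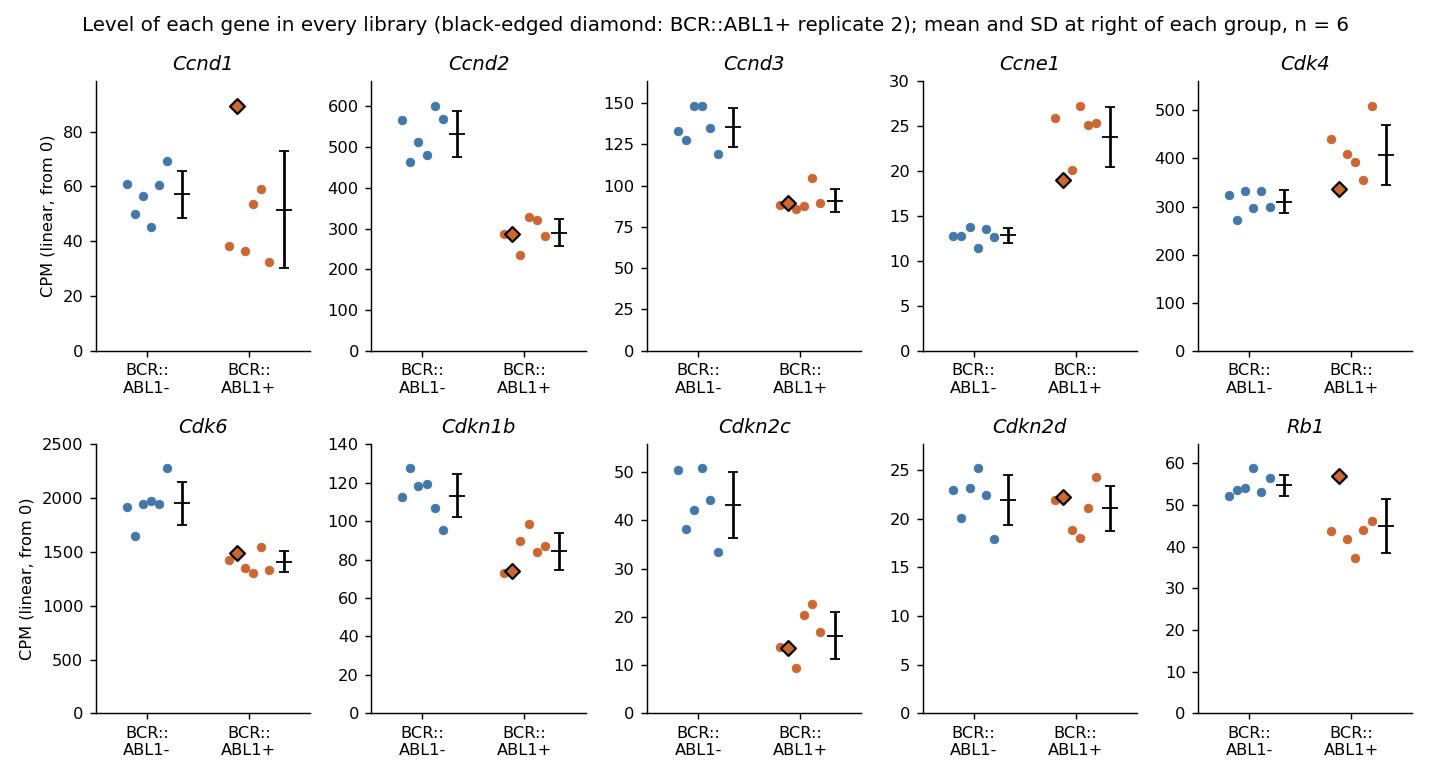
CPM of each of the 10 genes (linear axes from 0) in every library of BCR::ABL1- (blue) and BCR::ABL1+ (orange), with mean and SD beside each group and BCR::ABL1+ replicate 2 as a black-edged diamond. The groups separate fully for Ccnd2, Ccnd3, Ccne1, Cdk4, Cdk6 and Cdkn2c, and replicate 2 is the highest BCR::ABL1+ library for Ccnd1 and Rb1.

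Among the D-type cyclins, which carry growth signals to CDK4 and CDK6, Ccnd2 and Ccnd3 fell and Ccnd1 did not pass the test. Ccnd2 (ENSMUSG00000000184), the most abundant of the D-type cyclins per kilobase, ranged from 463 to 602 CPM in BCR::ABL1- (median 539.8) and from 235 to 329 CPM in BCR::ABL1+ (median 287). Every BCR::ABL1+ library lay below every BCR::ABL1- library, and the mean level was 0.545 of that in BCR::ABL1- (log2 fold change -0.88, SE 0.0896, adjusted p = 1.31e-06, edgeR). Ccnd3 (ENSMUSG00000034165) ranged from 119 to 148 CPM in BCR::ABL1- (median 134) and from 85.9 to 105 CPM in BCR::ABL1+ (median 88.7). These groups did not overlap either, with BCR::ABL1+ replicate 5 the nearest to the controls (log2 fold change -0.57, SE 0.0690, adjusted p = 6.00e-06, edgeR). Bysl overlaps Ccnd3 on the opposite strand and did not pass the test (34.1 and 36.6 CPM, log2 fold change 0.10, adjusted p = 0.156, edgeR). 9330179D12Rik and Gm43126 overlap Ccnd2 on the opposite strand. How far shared reads enter the counts of Ccnd2 and Ccnd3 was not tested.

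Ccnd1 (ENSMUSG00000070348), the D-type cyclin most closely tied to mitogen signalling in many tissues, ranged from 45.1 to 69.4 CPM in BCR::ABL1- (median 58.5) and from 32.3 to 89.5 CPM in BCR::ABL1+ (median 45.8). The groups overlapped: 3 BCR::ABL1+ libraries lay below the lowest control and 1, replicate 2, above the highest. Its log2 fold change was -0.15 (SE 0.210, 95% interval -0.59 to 0.30, adjusted p = 0.565, edgeR). This value depended on replicate 2: without it the log2 fold change was -0.39 and passed the test (adjusted p = 0.0367, edgeR; adjusted p 0.0175 to 0.923 over all 21 alternatives). The stromal and endothelial list had 3 of 9 tested genes higher and 0 lower, beside 30.6% and 29.0% of all genes tested. It summed to 194 to 252 CPM in BCR::ABL1- libraries against 177 to 943 CPM in BCR::ABL1+ libraries, the highest in replicate 2. Pecam1 and Pdgfrb held most of the BCR::ABL1- sum (means 120 and 76.8 CPM) and did not pass the test. None of the list's markers was at 0 in every library, and its part in the Ccnd1 result was not tested. Reads of Ccnd1 could also include those of LTO1, which overlaps it on the opposite strand and fell (log2 fold change -0.37, adjusted p = 0.0145, edgeR), since the use of strand in counting is not given in the sources used here.

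Per kilobase of exon, the D-type cyclins summed to 84.1 ± 6.98 CPM in BCR::ABL1- (74.4 to 92.2) and 52.1 ± 7.02 CPM in BCR::ABL1+ (42.5 to 59.6), without overlap. Ccnd2 made up 67.2 ± 1.62% of this sum in BCR::ABL1- and 59.4 ± 4.70% in BCR::ABL1+, again without overlap (65.4 to 69.4% and 50.9 to 63.7%). The share of Ccnd1 was 14.4 ± 1.37% and 20.5 ± 6.11%, and that of Ccnd3 18.5 ± 2.49% and 20.1 ± 2.28%, both with overlap. With these exon lengths (9409 bases for Ccnd2, 8775 for Ccnd3 and 4709 for Ccnd1), Ccnd2 remained the largest D-type cyclin component in all 12 libraries. The shares rest on these lengths, and other lengths were not tried for them.

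Ccne1 (ENSMUSG00000002068), which encodes cyclin E1, the partner of CDK2 late in G1, rose, opposite to Ccnd2 and Ccnd3. It ranged from 11.5 to 13.8 CPM in BCR::ABL1- (median 12.8) and from 19.0 to 27.3 CPM in BCR::ABL1+ (median 25.2). All 6 BCR::ABL1+ libraries lay above the highest control, with replicates 2 and 3 the lowest of the group, and the mean rose 1.85-fold (log2 fold change 0.89, SE 0.100, adjusted p = 3.25e-06, edgeR). The ratio of Ccne1 to Ccnd2 per kilobase was 0.0860 ± 0.00838 in BCR::ABL1- against 0.291 ± 0.0314 in BCR::ABL1+, without overlap. Ccne1 remained the least abundant of the 10 genes per kilobase in BCR::ABL1-, at 4.83 ± 0.308 CPM per kilobase, and was no longer so in BCR::ABL1+, at 8.94 ± 1.27.

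The kinases that pair with D-type cyclins diverged. Cdk4 (ENSMUSG00000006728) ranged from 272 to 333 CPM in BCR::ABL1- (median 312) and from 336 to 510.0 CPM in BCR::ABL1+ (median 401). The lowest BCR::ABL1+ library, replicate 2, lay just above the highest control, and the mean rose 1.31-fold (log2 fold change 0.39, SE 0.0946, adjusted p = 0.00233, edgeR). Cdk6 (ENSMUSG00000040274), by far the more abundant in reads, ranged from 1641 to 2274 CPM in BCR::ABL1- (median 1942) and from 1302 to 1546 CPM in BCR::ABL1+ (median 1385). All BCR::ABL1+ libraries lay below the lowest control, and the level was 0.723 of that in BCR::ABL1- (log2 fold change -0.47, SE 0.0783, adjusted p = 0.000126, edgeR).

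Because Cdk4 rose and Cdk6 fell, their order per kilobase changed. Cdk6 stood at 139 ± 14.4 CPM per kilobase and Cdk4 at 95.3 ± 7.40 in BCR::ABL1-, against 101 ± 6.90 and 125 ± 19.3 in BCR::ABL1+. The ratio of Cdk6 to Cdk4 was 1.46 ± 0.160 in BCR::ABL1- (1.356 to 1.76) against 0.823 ± 0.165 in BCR::ABL1+ (0.608 to 1.03), so that no BCR::ABL1+ library reached the lowest control. In BCR::ABL1+ replicates 2 and 5 the kinases stood near 1 to 1, and replicate 6 had the lowest ratio. The sum of both kinases overlapped between groups, at 235 ± 18.1 and 226 ± 15.9 CPM per kilobase. The size of the ratio rests on the gene lengths: with the longest transcript in place of all exons, a choice made after the values were seen, it was 1.12 ± 0.123 and 0.631 ± 0.127, still without overlap. Tspan31, which overlaps Cdk4 on the opposite strand, also rose (27.9 to 41.3 CPM, log2 fold change 0.56, adjusted p = 7.83e-05, edgeR), and Gm17590, which overlaps Cdk6, rose while Cdk6 fell (10.2 to 19.9 CPM, log2 fold change 0.96, adjusted p = 0.000256, edgeR). How far shared reads enter the kinase counts was not tested.

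**Figure D2:**
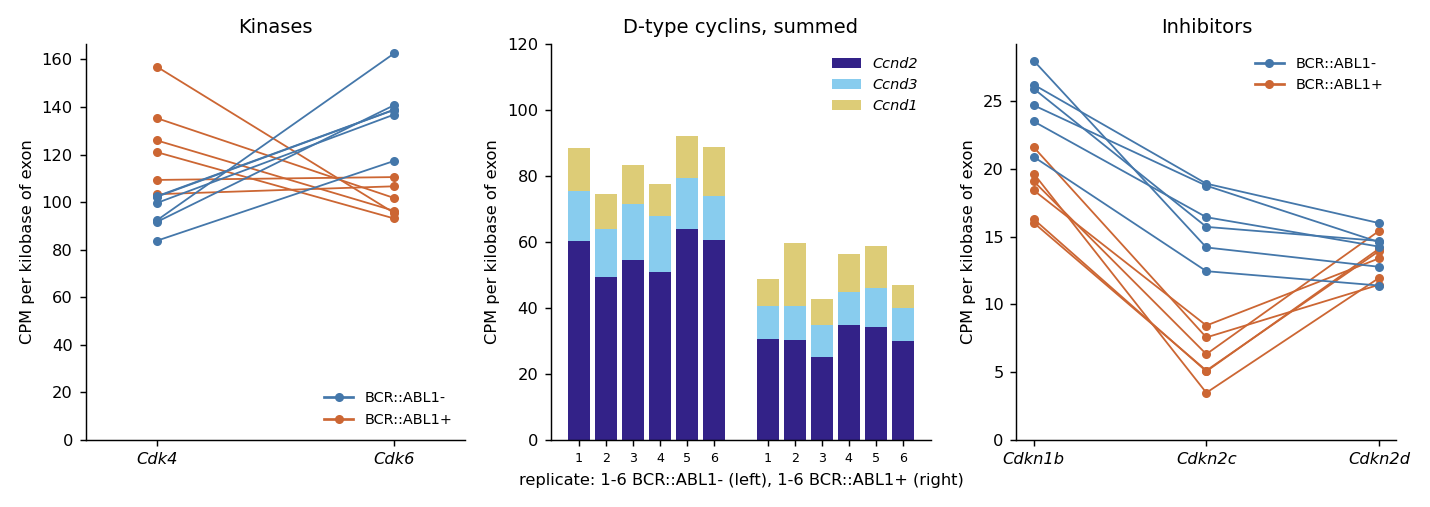
Level per kilobase of exon (CPM per kilobase, linear axes from 0) in each library: Cdk4 joined to Cdk6 (left), the D-type cyclins stacked for replicates 1 to 6 of each group (middle), and the inhibitors joined by library (right), with BCR::ABL1- in blue and BCR::ABL1+ in orange. All BCR::ABL1- lines rise from Cdk4 to Cdk6, 4 of the BCR::ABL1+ lines fall and the other two are nearly level, and Cdkn2c drops out of line with its neighbours in BCR::ABL1+.

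Of the inhibitors, Cdkn2c and Cdkn1b fell and Cdkn2d did not pass the test. Cdkn2c (ENSMUSG00000028551), an INK4 inhibitor of CDK4 and CDK6, had the largest change of the 10 genes, and 6.04% of all genes tested had a larger absolute log2 fold change. It ranged from 33.4 to 50.8 CPM in BCR::ABL1- (median 43.2) and from 9.31 to 22.7 CPM in BCR::ABL1+ (median 15.3). The highest BCR::ABL1+ library stayed well below the lowest control, and the level was 0.373 of that in BCR::ABL1- (log2 fold change -1.42, SE 0.180, adjusted p = 9.52e-06, edgeR). Cdkn2d (ENSMUSG00000096472), the other INK4 gene of the list, ranged from 17.9 to 25.2 CPM in BCR::ABL1- (median 22.7) and from 18.0 to 24.3 CPM in BCR::ABL1+ (median 21.5). The groups overlapped almost fully, and its log2 fold change was -0.06 (SE 0.0979, 95% interval -0.27 to 0.15, adjusted p = 0.610, edgeR), turning to 0.01 with upper-quartile scaling.

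The ratio of Cdkn2c to Cdkn2d per kilobase was 1.15 ± 0.0780 in BCR::ABL1- against 0.452 ± 0.154 in BCR::ABL1+, without overlap. Their sum was 30.0 ± 4.08 CPM per kilobase in BCR::ABL1- (23.8 to 34.9) and 19.4 ± 2.35 in BCR::ABL1+ (15.4 to 21.8). With these exon lengths, the INK4 transcript pool measured by these genes was therefore smaller in BCR::ABL1+ and most of it was Cdkn2d. Cdkn1b (ENSMUSG00000003031), the CIP/KIP inhibitor, ranged from 95.1 to 127 CPM in BCR::ABL1- (median 115) and from 72.9 to 98.4 CPM in BCR::ABL1+ (median 85.4). 5 of 6 BCR::ABL1+ libraries lay below the lowest control and replicate 4 within the controls' range (log2 fold change -0.43, SE 0.0849, adjusted p = 0.000565, edgeR). Per kilobase, the ratio of Ccne1 to Cdkn1b was 0.196 ± 0.0248 in BCR::ABL1- against 0.486 ± 0.0756 in BCR::ABL1+, without overlap.

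Rb1 (ENSMUSG00000022105), the pocket protein gene on which the pathway acts, ranged from 52.2 to 58.8 CPM in BCR::ABL1- (median 53.8) and from 37.2 to 56.9 CPM in BCR::ABL1+ (median 43.9). 5 of 6 BCR::ABL1+ libraries lay below the lowest control, and replicate 2 lay among the controls. Its fall was the smallest of the 6 genes called lower (log2 fold change -0.28, SE 0.0843, adjusted p = 0.00978, edgeR). Lpar6 and Rcbtb2 overlap Rb1 on the opposite strand and did not pass the test (log2 fold changes -0.30 and -0.11, adjusted p = 0.0532 and 0.152, edgeR).

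**Figure D3:**
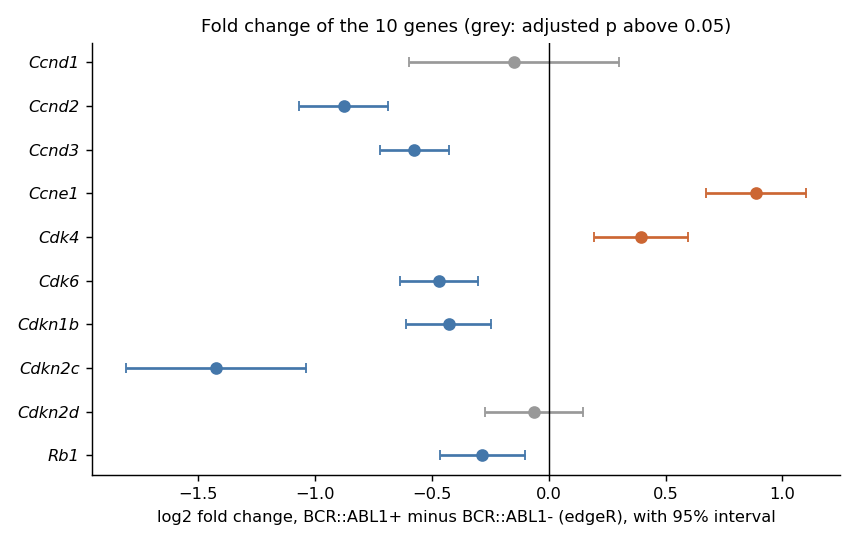
Log2 fold change of each of the 10 genes (horizontal axis, BCR::ABL1+ minus BCR::ABL1-, edgeR, n = 6 per group) with its 95% interval, orange for higher, blue for lower and grey for an adjusted p above 0.05. Cdkn2c lies farthest left at -1.42 and Ccne1 farthest right at 0.89, and the intervals of Ccnd1 and Cdkn2d cross 0.

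Ordered by level per kilobase in BCR::ABL1-, Cdk6, Cdk4, Ccnd2 and Cdkn1b each stood apart from the next gene, from 139 down to 24.9 ± 2.47 CPM per kilobase. Cdkn2c, Ccnd3, Cdkn2d, Ccnd1 and Rb1 followed between 16.1 ± 2.54 and 9.10 ± 0.412, and each overlapped its neighbour. In BCR::ABL1+, Cdk4 and Cdk6 overlapped at the top, Ccnd2 (30.8 ± 3.55) and Cdkn1b (18.5 ± 2.11) stood apart, and the last 6 genes overlapped in sequence from Cdkn2d (13.4 ± 1.47) to Cdkn2c (5.99 ± 1.82). Cdkn2c thus went from rank 5 to rank 10. The order rests on the exon lengths used, and other lengths were not tried for it. The spread between libraries also differed by gene. The coefficient of variation of CPM went from 15.1% in BCR::ABL1- to 41.6% in BCR::ABL1+ for Ccnd1, from 15.8% to 30.4% for Cdkn2c and from 4.53% to 14.6% for Rb1, while that of Cdk6 was 10.3% and 6.86%. These are descriptions of 6 libraries per group and were not tested.

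Markers of some other cells differed between the groups beside all of these results. Of all genes tested, 30.6% were higher and 29.0% lower in BCR::ABL1+. All 7 erythroid genes were lower, with sums of 96.2 to 180 CPM in BCR::ABL1- against 10.2 to 42.3 CPM in BCR::ABL1+. All 6 megakaryocyte genes were lower too (289 to 335 CPM against 96.1 to 259 CPM). Of 8 mast cell and basophil genes 6 were higher and 0 lower (78.3 to 170 CPM against 406 to 2370 CPM, the highest in replicate 2). Of 8 neutrophil genes 2 were higher and 5 lower (1980 to 4221 CPM against 1740 to 5102 CPM), and of 8 monocyte genes 2 were higher and 0 lower (290 to 559 CPM against 477 to 867 CPM). Of 7 T and NK cell genes tested 2 were higher and 2 lower (75.7 to 99.7 CPM against 86.7 to 193 CPM), and of 8 B cell genes 0 were higher and 2 lower (33.0 to 133 CPM against 26.3 to 105 CPM). The counts of 2 among T and NK cell, B cell and monocyte genes lay near the shares over all genes. Nkg7 held most of the T and NK cell sum (means 82.7 and 121 CPM). Nkg7 and Klrb1c were called higher, and Cd4 and Cd8a lower. Mpo held most of the neutrophil sum (means 1695 and 2692 CPM). Mpo and Elane were called higher, and Ly6g, S100a9, Camp, Ltf and Ngp lower. Each of these lower genes was highest in BCR::ABL1- replicate 4 (S100a9 at 732 CPM, group mean 210 CPM). That library was also the highest control for Ccnd3, Cdkn2c, Cdkn2d and Rb1. Without it, 2 of the 10 genes were higher and 6 lower. Genes of Lin-Sca+Kit+ identity were mostly lower, 9 of 12, with 2 higher (3183 to 3588 CPM against 2178 to 2653 CPM). The counts of 0 in edgeR were 0 at an unadjusted p under 0.05 as well, other than 1 lower mast cell and basophil gene. No marker of these lists was at 0 in every library, and the part of these cells in the results was not tested. Without BCR::ABL1+ replicates 2 and 4, both high in stromal genes, 2 of the 10 genes were higher and 7 lower, the seventh being Ccnd1. The library numbers of the replicate 6 libraries lie apart from the others. All 8 genes called kept their direction between these libraries alone. Both libraries entered the calls, and 6 of the 8 genes had groups without overlap, so this comparison could hardly come out otherwise.

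Among the other CDK inhibitors, 3 of 5 genes were tested, and 2 were called higher and 0 lower. Of all genes tested, 30.6% were higher and 29.0% lower. Without BCR::ABL1+ replicate 2, and without replicates 2 and 4, 2 were higher and 1 lower. Cdkn1a, which encodes the CIP/KIP inhibitor induced by DNA damage among other signals, was at 8.54 ± 1.12 CPM in BCR::ABL1- and 15.4 ± 7.83 CPM in BCR::ABL1+ (adjusted p = 0.00671, edgeR). Its groups did not overlap, with the highest value, 31.1 CPM, in replicate 2. Cdkn3, a phosphatase that acts on CDKs, rose (log2 fold change 0.49, SE 0.0928, adjusted p = 0.000392, edgeR). Cdkn1c, the third CIP/KIP gene, was at a log2 fold change of -0.37 (SE 0.299, adjusted p = 0.301, edgeR). The highest value of Cdkn1c, 5.90 CPM, was in BCR::ABL1+ replicate 2, in a group with a mean of 2.60 CPM.

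The neighbouring INK4 genes Cdkn2a and Cdkn2b were too low for the filter. Cdkn2a held 0 to 5 reads per BCR::ABL1- library (12 in all) and 0, 0, 11, 20, 54 and 71 reads per BCR::ABL1+ library (156 in all). Cdkn2b held 0 to 5 reads per BCR::ABL1- library (10 in all) and 2, 4, 7, 7, 77 and 83 reads per BCR::ABL1+ library (180 in all). For both, the highest BCR::ABL1+ libraries were replicates 2 and 4, which were also the high ones for stromal genes, and BCR::ABL1+ replicates 5 and 6 held 0 reads of Cdkn2a, where a count of 0 allows up to 3 reads. Without a filter both passed the test (adjusted p = 0.00453 for Cdkn2a and 0.00149 for Cdkn2b, edgeR).

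In the CDK2 arm, the second E-type cyclin moved with Ccne1 while its kinase fell. Of 5 genes tested 1 was higher and 3 lower (median log2 fold change -0.39). For this list and the next, the shares over all genes tested were 30.6% higher and 29.0% lower. Ccne2 rose from 52.3 ± 5.88 to 117 ± 25.8 CPM (log2 fold change 1.16, SE 0.134, adjusted p = 4.22e-06, edgeR). Cdc25b, a phosphatase that activates CDKs, fell by 1.24 and Cdk2 fell by 0.62 on the log2 scale (adjusted p = 4.95e-07 and 3.84e-06, edgeR). Ccna1 had 0 reads in all libraries. Genes that assemble and activate CDKs were higher in 4 of 6 cases and lower in 0 (median 0.36; 1 lower without a low-count filter and 1 without BCR::ABL1+ replicate 6), led by Cdk7 (0.86) and Mnat1 (0.62), subunits of the CDK-activating kinase, and Hsp90aa1 (0.39), a chaperone that stabilises CDK4 among other kinases.

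Genes of the pocket protein, E2F and DP families were mostly lower. Of 12 pocket protein, E2F and DP genes 9 were lower and 2 higher (median -0.49), beside 29.0% and 30.6% of all genes tested. E2f2, an activating E2F, fell by 1.00, Tfdp2, a dimer partner of E2F proteins, fell by 0.96, and E2f8, a repressing E2F, fell by 0.62 on the log2 scale. The 2 genes called higher, E2f5 and Tfdp1, named after their values were seen, were at 0.27 and 0.15 and lay near the threshold (adjusted p = 0.0363 and 0.0482, edgeR): the count of higher genes was 0 to 3 over the alternatives. S-phase genes that E2F factors are known to drive went both ways, 8 of 22 higher and 10 lower (median -0.06). Their count of higher genes lay near the share over all genes. With upper-quartile scaling 5 were lower. Rrm2, a ribonucleotide reductase subunit, rose by 0.78, Gins2, of the replicative helicase, by 0.77, and Uhrf1, which maintains DNA methylation, fell by 0.72 on the log2 scale.

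Genes that degrade or stabilise the products of these genes were also split. Of 15 ubiquitin pathway genes 6 were higher and 7 lower (median -0.04). For this list and the next, the shares over all genes tested were 30.6% higher and 29.0% lower. Fzr1, an activator of the anaphase-promoting complex that holds cells in G1, fell by 0.90 on the log2 scale. Skp1, a core subunit of the SCF ligases, rose by 0.82, and Cks2, a small CDK-binding protein, by 0.78. Upstream of G1 the direction was more uniform: of 14 signalling genes 9 were lower and 0 higher (median -0.47). Foxo3 and Foxo4, transcription factors of quiescence that can activate Cdkn1b, fell by 1.31 and 1.26 on the log2 scale, and Stat5b, a factor downstream of BCR::ABL1 signalling, fell by 0.89. The counts of 0 given for cell cycle lists, from edgeR, were also 0 by DESeq2 and at an unadjusted p under 0.05.

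**Figure D4:**
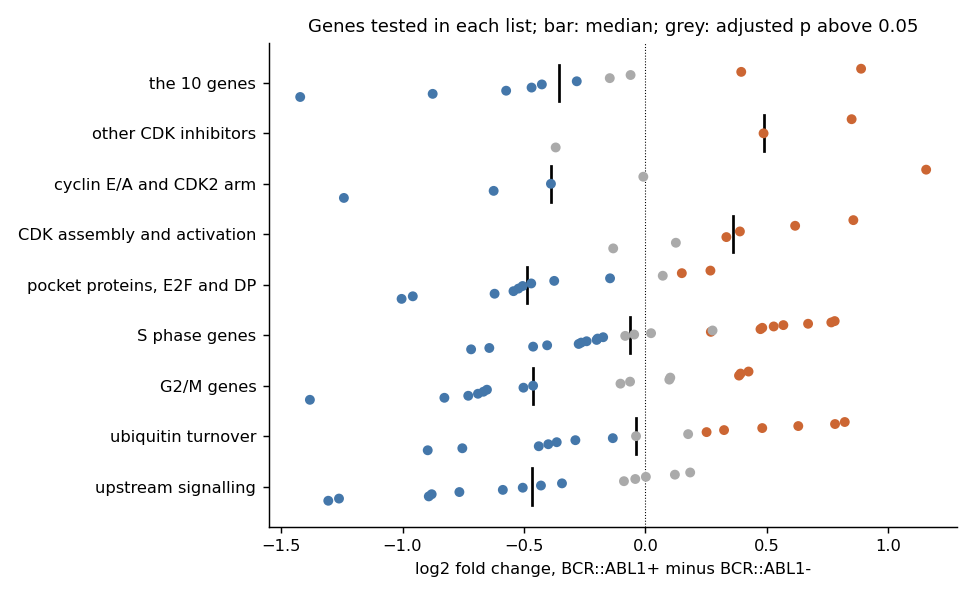
Log2 fold change (horizontal axis, BCR::ABL1+ minus BCR::ABL1-) of every tested gene of the 10 genes and of 8 other cell cycle lists, 1 point per gene, orange for higher, blue for lower, grey for an adjusted p above 0.05, with a black bar at the list median. The medians lie between -0.49 for pocket protein, E2F and DP genes and 0.49 for the other CDK inhibitors, and S-phase genes spread on both sides of 0.

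Genes whose levels varied most like each of the 10 genes were sought among 13442 genes, by Pearson r of log2 CPM over the 12 libraries after subtracting each group's mean. The libraries share donor pool and sequencing depth differences, so r is given as a description. The closest were Ppp1ca (r = 0.977) and Nap1l1 (0.973) for Cdk4, Gltp (0.972) and Ptafr (0.959) for Cdkn2c, and Fam198b (0.956) and Spred1 (0.953) for Ccnd1. Zfp87 (0.947) and Fpgt (0.933) were closest to Ccne1, Apba3 (0.943) and Pim3 (0.938) to Rb1, and Ak3 (0.935) and Tab2 (0.924) to Ccnd2. For Cdk6 they were B3gnt7 (0.923) and Nup153 (0.890), for Ccnd3 Ssbp4 (0.901) and Gpn2 (0.832), for Cdkn1b Nod1 (0.898) and B230369F24Rik (0.896), and for Cdkn2d Tor2a (0.874) and C430042M11Rik (0.863). None of the 10 genes had another of the 10 among its closest pair.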

How the data were processed

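RNA from sorted donor CD45.2+ Lin-Sca+Kit+ BM cells was sequenced in 6 BCR::ABL1- and 6 BCR::ABL1+ libraries, grouped by their titles. The values deposited by the authors are counts of reads on each Ensembl gene, 1 file per library, not normalised. The submitters' processing notes list FastQC 0.11.9, fastp 0.23.2, STAR 2.7.10a, featureCounts 2.0.1 and DESeq2 1.36.0 with mm39 (GRCm39), whereas the paper's methods name Trim Galore!, HISAT2 and a human build for bulk RNA-seq; the use of strand and of multi-mapping reads is not given in the sources used here. Near-identical copies and genes that overlap on opposite strands are therefore uncertain. Of 56748 identifiers 52073 were matched to symbols, and 0 entries named no gene.

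Counts were tested with edgeR 4.0.16 in R 4.3.3 (quasi-likelihood test, TMM factors, filterByExpr, 18438 genes, Benjamini-Hochberg adjustment over all of them, threshold 0.05). CPM used a prior count of 2 on the log2 scale, and levels per kilobase used GENCODE M21 exon lengths (GRCm38), an older build than that of the counts. Promoter windows came from RefSeq (GRCm38.p6). Depth was 16150817 to 41832868 counts, limits from a count of 0 (3 counts) cover counting error only, and no pair of libraries agreed within sampling noise (lowest chi-square per degree of freedom 4.07). Tables and plots used Python 3.11.15, numpy 2.4.6, pandas 2.3.3 and matplotlib 3.10.9. The steps were tested on simulated data.

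The 10 genes and all lists were chosen with earlier results of these data known. Named in addition were the 3 largest changes of each cell cycle list among genes with an adjusted p under 0.05 and a mean log2 CPM of at least 1, all other CDK inhibitors, the 2 genes most like each of the 10, overlapping genes, and checks of labels. Myc, E2f5, Tfdp1, Bub1, Cdk1, Ccnb1, Ccnb2, Nkg7, Klrb1c, Cd4, Cd8a, Mpo, Pecam1 and Pdgfrb were named outside this rule. So were Elane, Ly6g, S100a9, Camp, Ltf and Ngp. Alternatives were other scalings, DESeq2 1.42.0, other filters, a replicate block, thinning to the smallest library and leaving out libraries.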

Additional observations from a re-analysis of the deposited data

Results flagged for a closer look

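Ccnd3 in BCR::ABL1+ replicate 5, at 104.8 CPM, lay apart from the other 5 libraries of its group, of which the next highest was at 89.7 CPM. The gap was 0.802 of the whole range of the group. It was the only such case among the 20 sets of 6 libraries examined (10 genes in each group), where chance gives about 1. The Ccnd3 libraries of both groups did not overlap with this library included.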

How the results depend on the processing

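Under all 21 alternatives the 2 genes called higher and the 6 called lower kept their direction and their side of the threshold. Log2 fold changes lay between -0.95 and -0.80 for Ccnd2, -0.64 and -0.50 for Ccnd3, and 0.82 and 0.96 for Ccne1. They lay between 0.31 and 0.47 for Cdk4, -0.54 and -0.39 for Cdk6, and -0.50 and -0.35 for Cdkn1b. For Cdkn2c they lay between -1.55 and -1.31, and for Rb1 between -0.37 and -0.21. Rb1 came nearest to the threshold, at an adjusted p of 0.0425 when thinned to the smallest library (edgeR). Cdk4 reached 0.0176 without a low-count filter (edgeR). The call of Ccnd1 did change: leaving out 1 library at a time gave -0.39 to -0.052, the former without BCR::ABL1+ replicate 2 and then past the threshold (adjusted p = 0.0367, edgeR), leaving out BCR::ABL1+ replicates 2 and 4 gave -0.47 (adjusted p = 0.0175, edgeR), and leaving out both replicate 6 libraries gave 0.027 (adjusted p = 0.923, edgeR). For Cdkn2d the log2 fold change was 0.013 with upper-quartile factors (adjusted p = 0.911, edgeR) and 0.014 with genes at a mean log2 CPM of at least 1 (adjusted p = 0.904, edgeR), and -0.12 to -0.02 when 1 library was left out. The cause of these changes was not tested.

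The replicate numbers of the groups did not pair the samples (correlations of -0.166 to 0.120 over 6 pairs, and 0 of 6 controls closest to their own number). With a replicate block the 10 genes stayed at 2 higher and 6 lower, and 4786 genes were higher and 5189 lower in all. Over single libraries left out, all genes called numbered 5172 to 6070 higher and 5013 to 5937 lower. In the lists, S-phase genes called lower numbered 5 with upper-quartile factors or the level filter, and other CDK inhibitors called lower numbered 1 without BCR::ABL1+ replicate 2. CDK assembly and activation genes called lower numbered 1 without a low-count filter and 1 without BCR::ABL1+ replicate 6. The ratio of Cdk6 to Cdk4 with the longest transcript was 1.12 and 0.631. The lowest of the 10 genes held 152 reads in a library.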

Other observations

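Genes of G2 and mitosis, listed beside the G1 genes, were lower in 8 of 15 cases and higher in 3 (median log2 fold change -0.46). Of all genes tested, 29.0% were lower and 30.6% higher. Mki67, a marker of cycling cells, fell from 1587 ± 122 to 609 ± 80.7 CPM (SD, n = 6 each; log2 fold change -1.38, SE 0.0914, adjusted p = 4.27e-08, edgeR). Bub1b, of the spindle checkpoint, fell by 0.83 and Top2a, the topoisomerase of dividing cells, fell by 0.73 on the log2 scale. The 3 genes called higher, named after their values were seen, were Bub1 (0.42), Cdk1 (0.39) and Ccnb1 (0.39). Ccnb2, another cyclin that pairs with CDK1, was at -0.06 and did not pass the test (adjusted p = 0.394, edgeR).

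Placed among all genes tested, 21.7% had a larger absolute log2 fold change than Ccne1, 22.5% than Ccnd2, 52.0% than Cdk6, 59.1% than Cdk4 and 70.6% than Rb1.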
